A study of Mus musculus with 16 samples.

Results

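The enzymes of cholesterol synthesis were followed through Hmgcs1, Idi1, Fdft1, Sqle, Lss and Cyp51, together with Insig1, the sterol-dependent brake on the pathway. The 7 genes were chosen by name, and every probe that the platform's annotation assigns to them was taken. There were 10 such probes for 6 of the genes, out of 25697 probes for 16593 named genes on the array, and no probe was named for Fdft1. Of the 10 probes, 7 probes of 5 genes were detected often enough to be tested, among 12764 probes tested in all. None of the 7 genes takes up cholesterol, so uptake is described below only through other genes of lipid transport.

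Gene expression was measured in the cardiac left ventricle of 16 male mice aged 12 weeks, 1 Illumina MouseRef-8 v2.0 array per mouse. The 4 groups of 4 mice were castrated (CX) C57.YA, sham-operated C57.YA, CX C57BL/6J and sham-operated C57BL/6J. C57.YA stands for C57BL/6J-chrY<A>, a consomic strain in which chrY comes from A/J mice on a C57BL/6J background, so that only the origin of chrY is meant to separate the strains. All mice had surgery before puberty, and castration removes every testicular hormone, so that the surgery comparison is not one of testosterone alone. Each array read RNA of the whole ventricle, in which fewer cells of a type and less RNA per cell cannot be told apart.

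Cells make cholesterol from acetyl-CoA through mevalonate, isoprenoid units, squalene and lanosterol. When sterols run low in the endoplasmic reticulum, the transcription factor SREBP-2 is escorted by Scap to the Golgi, released by proteolysis and raises transcription of nearly all enzymes of the pathway. When sterols are plentiful, Insig proteins hold Scap back in the endoplasmic reticulum. Insig1 is itself an SREBP target, which is why its transcript usually moves with those of the enzymes.

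The promoters of the members that are described at most length are shown first, because shared regulation by SREBP is what links these genes. RefSeq promoters of build GRCm38.p6, 250 bases before and 50 after the start, were given for 5 of the 7 genes (Hmgcs1, Idi1, Lss, Cyp51 and Insig1). They were searched on both strands for TCACNCCAC, a form of the sterol regulatory element, for CCAAT, the NF-Y box, and for GGGCGG, the GC box bound by Sp1. Matches are in capitals below, and no match overlapped another. The Hmgcs1 promoter lies at chr13:119690101-119690400 on the plus strand, that of Insig1 at chr5:28071162-28071461 on the plus strand, and that of Cyp51 at chr5:4104648-4104947 on the minus strand.
Hmgcs1 promoter: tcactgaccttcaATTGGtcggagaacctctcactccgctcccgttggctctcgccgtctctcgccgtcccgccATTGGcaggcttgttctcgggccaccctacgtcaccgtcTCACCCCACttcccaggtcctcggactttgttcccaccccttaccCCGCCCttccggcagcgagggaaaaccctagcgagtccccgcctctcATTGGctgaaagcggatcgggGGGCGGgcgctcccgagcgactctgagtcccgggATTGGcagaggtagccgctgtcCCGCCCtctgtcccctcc
Insig1 promoter: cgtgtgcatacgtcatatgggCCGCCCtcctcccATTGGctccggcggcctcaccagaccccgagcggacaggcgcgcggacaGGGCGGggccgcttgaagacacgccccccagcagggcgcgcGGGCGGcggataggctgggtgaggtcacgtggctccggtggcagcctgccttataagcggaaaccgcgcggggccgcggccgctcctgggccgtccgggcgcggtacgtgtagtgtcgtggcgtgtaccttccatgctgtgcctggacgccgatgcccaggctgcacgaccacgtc
Cyp51 promoter: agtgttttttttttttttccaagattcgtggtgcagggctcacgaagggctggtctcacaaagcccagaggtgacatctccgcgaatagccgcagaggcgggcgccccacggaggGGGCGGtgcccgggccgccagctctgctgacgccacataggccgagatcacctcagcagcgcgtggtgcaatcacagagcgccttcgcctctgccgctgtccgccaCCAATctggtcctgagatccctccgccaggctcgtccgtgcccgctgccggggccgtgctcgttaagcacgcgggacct
TCACNCCAC was found in 1 of the 5 member promoters, that of Hmgcs1, at -137 to -129 on the plus strand, against 1.24% of all 32851 promoters of this length. CCAAT was found in 5 of 5, against 37.4% of all promoters. The Hmgcs1 promoter held 4 copies, all on the minus strand, with the nearest upstream copy at -45 to -41. GGGCGG was also found in 5 of 5, against 35.7% of all promoters. These are matches of letters, not binding sites, and binding was not measured here.

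Across the arrays, 11435 to 12212 probes passed the detection threshold of the study's methods (p of 0.04 or less against negative controls), and the median raw signal lay between 92.4 and 131. Signals were put on a log2 scale and quantile-normalized, and the lowest detected signal of an array then lay between 6.90 and 7.03. The tissue label was met by its markers: 5 of 6 cardiomyocyte markers were tested and their mean lay between 13.86 and 14.02 in the 4 groups. The 6 adipocyte markers with a probe (Adipoq, Plin1, Fabp4, Lep, Ucp1 and Cidec) were not detected often enough to be tested. This need not mean that such cells were absent. Kdr was not tested for the same reason, although the 3 tested endothelial markers had group means of 10.01 to 10.26. The 4 atrial muscle markers (Myl4, Myl7, Sln and Mybphl) stood apart in CX C57BL/6J hearts. Their summed signal was 3687 to 13650 in CX C57BL/6J hearts, while the sums of the other groups were 676 to 1120 (CX C57.YA), 692 to 762 (sham C57.YA) and 675 to 748 (sham C57BL/6J).

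Hmgcs1, the cytosolic HMG-CoA synthase that commits acetoacetyl-CoA to the mevalonate pathway, was far above the detection limit on all 16 arrays. Its log2 signals in replicates 1 to 4 were 12.46, 12.42, 12.57 and 12.60 in CX C57.YA hearts, and 12.39, 12.43, 12.72 and 12.67 in sham C57.YA hearts. They were 12.23, 12.17, 12.38 and 12.39 in CX C57BL/6J hearts, against 12.34, 12.35, 12.40 and 12.55 in sham C57BL/6J hearts. Every CX C57.YA heart was above every CX C57BL/6J heart, whereas the other pairs of groups overlapped.

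Insig1 was read by 4 probes, of which ILMN_2895388 was well above the detection limit on all arrays. Its log2 signals were 9.41, 9.78, 9.43 and 9.65 in CX C57.YA hearts, and 9.26, 9.39, 9.44 and 9.55 in sham C57.YA hearts. They were 9.28, 9.18, 9.23 and 9.56 in CX C57BL/6J hearts, against 9.47, 9.46, 9.38 and 9.47 in sham C57BL/6J hearts. CX C57.YA and CX C57BL/6J hearts overlapped through the fourth CX C57BL/6J mouse. Another 2 probes, ILMN_2606693 and ILMN_1245272, were detected on 14 and 12 of 16 arrays at 6.88 to 7.47 and 6.89 to 7.29, close to the detection limit, and ILMN_2620965 was detected on none.

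Cyp51, lanosterol 14-alpha-demethylase, an early step after the sterol rings have closed, was detected on all 16 arrays, with group means between 7.80 and 7.88. Its log2 signals were 8.01, 7.74, 7.87 and 7.77 in CX C57.YA hearts, and 7.78, 7.65, 7.92 and 7.91 in sham C57.YA hearts. They were 7.93, 7.83, 7.84 and 7.90 in CX C57BL/6J hearts, against 7.69, 7.72, 7.98 and 7.83 in sham C57BL/6J hearts. All 4 groups overlapped.

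The remaining enzymes were near or below the detection limit, so that only bounds or imprecise values can be given. Idi1, the isomerase that supplies dimethylallyl diphosphate, was detected on 7 of 16 arrays, with group means of 6.91 ± 0.03 in CX C57.YA, 6.97 ± 0.30 in sham C57.YA, 6.93 ± 0.16 in CX C57BL/6J and 6.85 ± 0.20 in sham C57BL/6J hearts (SD, n = 4 each). Sqle, squalene epoxidase, the oxygen-requiring step before ring closure, was detected by ILMN_2737163 on 15 of 16 arrays, with means of 7.10 ± 0.07 in CX C57.YA, 7.28 ± 0.26 in sham C57.YA, 7.24 ± 0.16 in CX C57BL/6J and 7.14 ± 0.16 in sham C57BL/6J hearts. The sham C57.YA spread came from replicate 2, at 7.65, against 7.05 to 7.26 in the other 3. The other Sqle probe and the single probe of Lss, lanosterol synthase, were not detected on any array, and their signals are not interpreted.

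**Figure D1:**
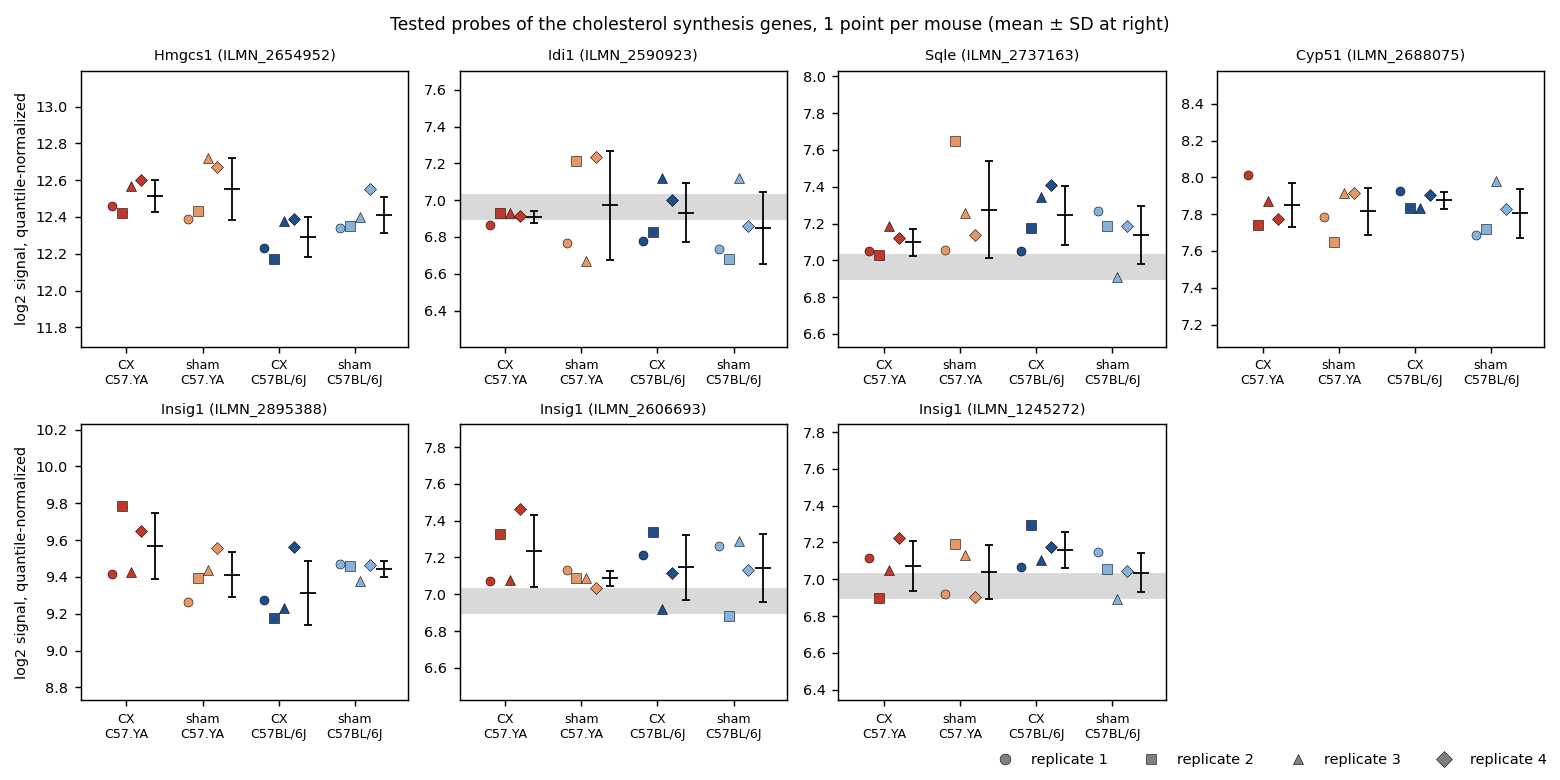
Log2 quantile-normalized signal (y axis) of the 7 tested member probes in the 4 groups (x axis), with 1 symbol per mouse by replicate number and the mean and SD of the 4 mice at the right of each group. The grey band marks the lowest detected signal of the arrays, 6.90 to 7.03. Hmgcs1 and the ILMN_2895388 probe of Insig1 lie far above it, and in Hmgcs1 the CX C57.YA mice (12.42 to 12.60) lie above the CX C57BL/6J mice (12.17 to 12.39).

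Whether castration changed the pathway was asked in each strain with a linear model over all 16 arrays (limma), and a Benjamini-Hochberg adjusted p under 0.1 over all tested probes counted as a call. In C57.YA hearts, castration changed 0 of the 7 member probes, whereas 19.7% of all tested probes were called (9.55% higher in CX, 10.1% lower). The lowest adjusted p was 0.293, and 0 member probes reached an unadjusted p under 0.05. In C57BL/6J hearts castration likewise changed 0 of 7 member probes, against 8.81% of all tested probes (4.1% higher in CX, 4.71% lower), with a lowest adjusted p of 0.463 and again 0 probes at an unadjusted p under 0.05. Averaged over both strains, 0 of 7 were called, against 23.2% of all tested probes. The median change over the member probes was 0.03 in C57.YA and 0.07 in C57BL/6J hearts on the log2 scale, against 0.00 over all tested probes in both strains.

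The precision of these differences varied between the members. Hmgcs1 differed by -0.04 between CX and sham C57.YA hearts (95% interval -0.22 to 0.14) and by -0.12 between CX and sham C57BL/6J hearts (-0.30 to 0.06). Cyp51 differed by 0.03 (-0.14 to 0.20) in C57.YA and by 0.07 (-0.10 to 0.24) in C57BL/6J. ILMN_2895388 of Insig1 differed by 0.16 (-0.04 to 0.35) in C57.YA and by -0.13 (-0.33 to 0.07) in C57BL/6J. Over all 7 probes the intervals reached 1.33-fold at most in C57.YA hearts and 1.27-fold in C57BL/6J hearts, on signals without background subtraction. Because background holds down the fold of a dim probe, the limits were wider with background correction for the dim members. With it, Sqle differed by -0.30 (-0.72 to 0.11) and Idi1 by -0.12 (-0.61 to 0.36) on the log2 scale in C57.YA hearts.

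The interaction, the castration change in C57.YA minus that in C57BL/6J hearts, was 0.29 for ILMN_2895388 of Insig1 (SE 0.13, 95% interval 0.01 to 0.57, limma unadjusted p = 0.0442, adjusted p = 0.316). The Sqle probe had an interaction of -0.28 (SE 0.16, adjusted p = 0.421). With background correction these were 0.32 for Insig1 (adjusted p = 0.352) and -0.49 for Sqle (adjusted p = 0.439). None of the 7 member probes was called, against 2.88% of all tested probes.

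The origin of chrY was compared within CX and within sham hearts. Among CX hearts, 2 of 7 member probes were called, both higher in C57.YA, against 23.4% of all tested probes (11.6% higher and 11.8% lower). Hmgcs1 was 1.17-fold higher in CX C57.YA than in CX C57BL/6J hearts, with means of 12.51 ± 0.08 and 12.29 ± 0.11 (log2 difference 0.22, SE 0.08, 95% interval 0.04 to 0.40, limma adjusted p = 0.0814). ILMN_2895388 of Insig1 was 1.20-fold higher, with means of 9.57 ± 0.18 in CX C57.YA and 9.31 ± 0.17 in CX C57BL/6J hearts (difference 0.26, SE 0.09, interval 0.06 to 0.45, adjusted p = 0.0691). The other tested Insig1 probes differed by 0.09 (ILMN_2606693, adjusted p = 0.618) and -0.09 (ILMN_1245272, adjusted p = 0.535), so that the call rests on 1 of its 3 tested probes.

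Both calls lay close to the threshold. With each array scaled to its median in place of quantile normalization, the difference was 0.10 for Hmgcs1 (adjusted p = 0.606) and 0.20 for Insig1 (adjusted p = 0.223), and neither was called. Leaving out 1 array gave a difference of 0.18 to 0.25 for Hmgcs1, whose call was lost without CX C57.YA replicate 1 (0.24), 3 (0.20) or 4 (0.19) or CX C57BL/6J replicate 1 (0.20) or 2 (0.18). The same gave 0.19 to 0.34 for Insig1, whose call was lost without CX C57.YA replicate 2 (0.19) or 4 (0.23) or CX C57BL/6J replicate 1 (0.25), 2 (0.21) or 3 (0.23). The 4 atrial markers were all lower in CX C57.YA than in CX C57BL/6J hearts in the same comparison. One marker each of cardiomyocytes (of 5 tested), endothelium (of 3), smooth muscle (of 3), macrophages and leukocytes (of 2) and mesothelium (of 2) was also called, with list means of 13.98, 10.19, 9.78, 10.76 and 7.79 in CX C57.YA hearts, against 13.86, 10.01, 9.75, 10.50 and 8.27 in CX C57BL/6J hearts. None of the 4 tested fibroblast and 2 tested red cell markers was called. Over all tested probes, 23.4% were called in this comparison. The part of any of these cell types in the Hmgcs1 and Insig1 differences was not tested.

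Between sham hearts, 0 of 7 member probes were called, against 4.29% of all tested probes (1.98% higher and 2.31% lower in C57.YA). Hmgcs1 differed by 0.14 in the same direction as in CX hearts (mean 12.55 ± 0.17 in sham C57.YA and 12.41 ± 0.10 in sham C57BL/6J hearts, interval -0.03 to 0.32, adjusted p = 0.407), whereas ILMN_2895388 of Insig1 differed by -0.03 (-0.23 to 0.17, adjusted p = 0.912). Averaged over surgery, Hmgcs1 alone was called, 1.13-fold higher in C57.YA (difference 0.18, SE 0.06, interval 0.06 to 0.31, adjusted p = 0.0412), against 25.4% of all tested probes. With median scaling this difference was 0.08 (adjusted p = 0.488), and without sham C57.YA replicates 3 and 4 it was 0.11 (adjusted p = 0.27).

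Hmgcs1 also differed by replicate number. In each of the 4 groups, replicates 3 and 4 were both above replicates 1 and 2, with means of 12.53 over replicates 3 and 4 and 12.35 over replicates 1 and 2. Of the other tested member probes, none did so in more than 2 of the 4 groups. Over all tested probes, deviations from the group means were correlated between arrays of different groups. The mean correlation was 0.0602 when both were replicates 1 or 2, or both 3 or 4, and -0.0603 otherwise. The labels give the number no meaning beyond the mouse, and which of the BeadChips held which array is not given in the sources used here. The Hmgcs1 strain difference among CX hearts was 0.24 within replicates 1 and 2 and 0.20 within replicates 3 and 4, and it was not called in either, with 2 mice a group.

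**Figure D2:**
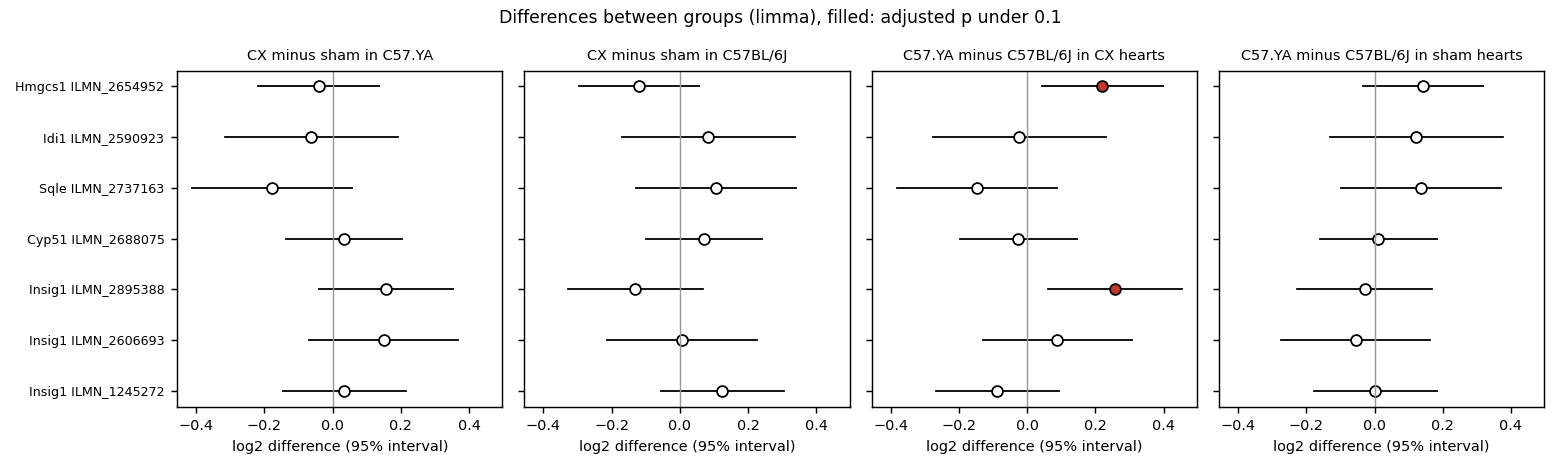
Log2 differences (x axis) of the 7 tested member probes (y axis) in the comparisons of CX with sham hearts by strain and of C57.YA with C57BL/6J hearts by surgery, with 95% intervals from limma. Filled points have an adjusted p under 0.1: these are Hmgcs1 (0.22) and ILMN_2895388 of Insig1 (0.26) among CX hearts, and every other interval includes 0.

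Because the members share a regulator, the covariation of the members was measured over the 16 arrays, 21 pairs of the 7 tested probes in all. Pearson's r ranged from -0.483 to 0.565 with a median of -0.0661, and 10 pairs were positive and 11 negative. After Benjamini-Hochberg adjustment over the 21 pairs, 0 had a permutation p under 0.1 (lowest adjusted p = 0.396, two-sided), and 2 had an unadjusted p under 0.05. One of these was Hmgcs1 with ILMN_2895388 of Insig1, at r = 0.501 (permutation p = 0.048, adjusted p = 0.396) and Spearman's rho = 0.441 (permutation p = 0.0881, adjusted p = 0.637). Without the 2 arrays farthest from the median of Hmgcs1, r was 0.556. It was 0.374 after the group means were subtracted, 0.599 within replicates 1 and 2 and 0.436 within replicates 3 and 4. The other was Sqle with ILMN_1245272 of Insig1, both near the detection limit, at r = 0.565 (permutation p = 0.021, adjusted p = 0.396) and rho = 0.541 (permutation p = 0.0332, adjusted p = 0.637), and 0.447 without the farthest 2 arrays.

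Other pairs of enzymes did not vary together in a way that these 16 arrays could show. Hmgcs1 had r = 0.173 with Cyp51, 0.169 with Idi1 and 0.039 with Sqle, and Sqle with Cyp51 had r = -0.483, which was -0.042 without the 2 arrays farthest from the median of Sqle. The 3 Insig1 probes had r of 0.261, -0.227 and 0.149 with each other. With the mean of the other members, each gene centred and scaled and read by its brightest probe, r was 0.473 for Hmgcs1, 0.321 for Idi1, 0.168 for Insig1, -0.099 for Sqle and -0.164 for Cyp51.

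**Figure D3:**
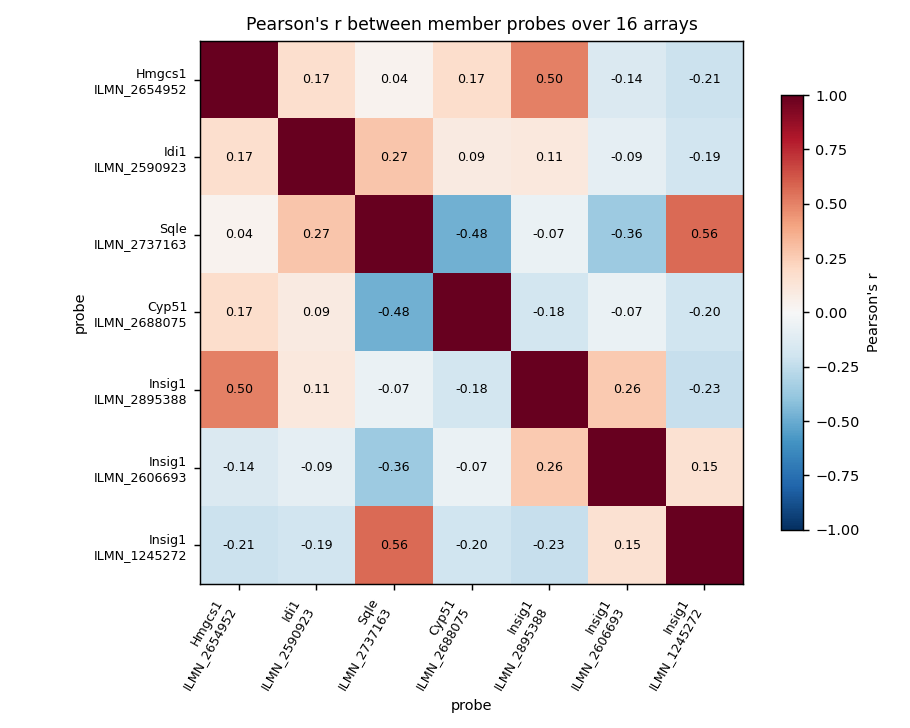
Pearson's r over the 16 arrays between the 7 tested member probes (both axes), with the colour scale running from -1 to 1. The values range from -0.483 (Sqle with Cyp51) to 0.565 (Sqle with ILMN_1245272 of Insig1), and Hmgcs1 with ILMN_2895388 of Insig1 stands at 0.501.

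The probes most like the mean of the 5 tested member genes over the 16 arrays, among 12757 tested probes of other genes, were those of Zmiz2 (r = 0.892), S100a11 (0.83), Mapk6 (0.818), Stbd1 (0.813), Cybc1 (0.808), Ube2j1 (0.806), Srp68 (0.797), Wiz (0.794) and B4galt1 (0.793), and 1 unnamed probe (0.824). None is on the 5 lists of sterol and lipid genes used here. The values are the extreme of a large number of correlations and describe these arrays only.

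The other enzymes of mevalonate and sterol synthesis gave 1 call among 10 tested genes in each strain, against 19.7% of all tested probes in C57.YA and 8.81% in C57BL/6J hearts. Of 16 genes listed, 12 had a probe and 10 were tested, and castration lowered 1 and raised 0 in C57.YA, and raised 1 and lowered 0 in C57BL/6J. The median change over the 10 genes was -0.06 in C57.YA and 0.05 in C57BL/6J hearts, against 0.00 over all tested probes. The gene that fell in C57.YA was Sc5d, sterol C5-desaturase, by 0.23 log2 units (adjusted p = 0.055), a call lost without CX C57.YA replicate 1 (-0.22) or 4 (-0.22) or sham C57.YA replicate 4 (-0.14). The gene that rose in C57BL/6J was Lbr, the lamin B receptor, which also carries sterol C14-reductase activity, by 0.19 (adjusted p = 0.0776), a call lost without CX C57BL/6J replicate 1 (0.17) or 3 (0.18) or sham C57BL/6J replicate 2 (0.19), 3 (0.18) or 4 (0.19). Lbr differed by 0.09 in C57.YA hearts (adjusted p = 0.343), with an interaction of -0.10 (adjusted p = 0.634). Averaged over both strains, castration raised 1 of the 10 and lowered 1, against 23.2% of all tested probes. The gene raised was Lbr (0.14, adjusted p = 0.03), a call kept with each array left out. Among CX hearts 1 of the 10 was called, against 23.4% of all tested probes. This was Nsdhl, a sterol dehydrogenase of C4 demethylation, 0.20 log2 units lower in C57.YA (adjusted p = 0.0428), a call lost without CX C57.YA replicate 2 (-0.19) or 3 (-0.18) or CX C57BL/6J replicate 3 (-0.17), and among sham hearts 0 of the 10 were called. The Nsdhl call rests on 1 of its 3 tested probes, the others differing by -0.14 (adjusted p = 0.314) and -0.20 (adjusted p = 0.126). All 3 lay near the detection limit. The called probe had group means of 6.975 to 7.178 and was detected on 2 of 4 sham C57.YA arrays. The Sc5d call in C57.YA, the Lbr call in C57BL/6J and the Nsdhl call among CX hearts were not made with median scaling (adjusted p = 0.295, 0.228 and 0.136).

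Among the genes of sterol sensing and SREBP processing, castration changed the same single gene in both strains, out of 7 tested of 9 listed, where 19.7% of all tested probes were called in C57.YA and 8.81% in C57BL/6J hearts. This was Srebf1, which encodes SREBP-1, the factor that favours fatty acid synthesis over cholesterol synthesis. Its log2 signals were 6.96, 7.03, 7.35 and 7.11 in CX C57.YA hearts, against 7.67, 7.79, 8.02 and 8.07 in sham C57.YA hearts, and 7.09, 7.08, 7.04 and 7.35 in CX C57BL/6J hearts, against 7.80, 7.42, 7.81 and 7.57 in sham C57BL/6J hearts. CX and sham hearts did not overlap in either strain. The CX signals lay close to the detection limit, with detection on 3 of 4 CX C57.YA arrays, and background holds down the fold of a dim probe. Srebf1 fell by 0.77 in C57.YA (SE 0.11, 1.71-fold, adjusted p = 9.20e-05) and by 0.51 in C57BL/6J (SE 0.11, 1.43-fold, adjusted p = 0.00898), and both calls were kept with each array left out and with median scaling. Among CX hearts, Mbtps1, the site-1 protease that cleaves SREBPs, was called higher in C57.YA (0.23), and Scap, the SREBP escort, and Erlin2, a membrane protein of the endoplasmic reticulum, lower (-0.21 and -0.24). The other tested probes were not called, at 0.14 and 0.04 for Mbtps1 (adjusted p = 0.217 and 0.798) and 0.01 for Erlin2 (adjusted p = 0.946). Of the 16 fits that left out 1 array, the Mbtps1 call was lost in 11, the Erlin2 call in 4 and the Scap call in 3. The Mbtps1 call was also not made with background correction (adjusted p = 0.1065) or median scaling (adjusted p = 0.215). Of the 7 tested genes, 1 was thus called higher and 2 lower among CX hearts, against 11.6% and 11.8% of all tested probes. The brighter Erlin2 probe differed by -0.22 between sham hearts (adjusted p = 0.202), with an interaction of -0.02 (adjusted p = 0.96). Averaged over surgery, 0 of the 7 were called higher and 1 lower in C57.YA, against 25.4% of all tested probes. This was Erlin2 (-0.23, adjusted p = 0.0146), a call kept with each array left out, whereas its other probe differed by -0.05 (adjusted p = 0.72).

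Nr1h3, which encodes the oxysterol receptor LXR-alpha, an inducer of Srebf1 in liver, was read by 2 tested probes, and the brighter of them (ILMN_2663374) fell with castration in both strains. Its log2 signals were 9.10, 9.26, 9.55 and 9.35 in CX C57.YA hearts, against 9.81, 9.86, 10.06 and 10.12 in sham C57.YA hearts, and 8.98, 9.16, 8.82 and 8.99 in CX C57BL/6J hearts, against 9.69, 9.77, 9.62 and 9.86 in sham C57BL/6J hearts. The groups did not overlap in either strain. The log2 fall was 0.65 in C57.YA hearts (SE 0.10, adjusted p = 1.89e-04) and 0.75 in C57BL/6J hearts (SE 0.10, adjusted p = 1.04e-04). The other probe, ILMN_2668472, fell by 0.47 in C57.YA (adjusted p = 0.0106) and was not called in C57BL/6J, where it differed by -0.29 and the groups overlapped (adjusted p = 0.157). Of the 5 genes listed for cholesterol efflux and LXR, only Nr1h3 and Apoe were tested, and Apoe, a lipid carrier, was not called for castration in either strain. Among CX hearts the brighter Nr1h3 probe was 0.33 log2 units higher in C57.YA (adjusted p = 0.0286), a call lost without CX C57.YA replicate 3 (0.25), and the other differed by 0.13 (adjusted p = 0.503). Apoe was 0.27 log2 units lower in CX C57.YA than in CX C57BL/6J hearts (adjusted p = 0.0943), a call lost in 9 of the 16 fits that left out 1 array. Of these 2 tested genes, 1 was thus called higher and 1 lower among CX hearts, against 11.6% and 11.8% of all tested probes.

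Some markers of other cell types moved in the same comparisons, in which 19.7% of all tested probes were called in C57.YA and 8.81% in C57BL/6J hearts. All 3 smooth muscle markers (Myh11, Acta2 and Tagln) were called for castration in C57.YA, with a mean of 9.78 in CX C57.YA and 10.33 in sham C57.YA hearts, and summed signals of 10270 to 18270 against 16140 to 25710. Both tested mesothelial markers (Upk3b and Wt1) were also called in C57.YA, with means of 7.79 in CX and 8.50 in sham hearts. In C57BL/6J hearts the 4 atrial markers were called for castration, with means of 9.95 in CX and 7.07 in sham hearts, and 1 of the 3 smooth muscle markers, with list means of 9.75 in CX and 10.17 in sham hearts (summed signals of 13190 to 23280 against 15790 to 23820). The part of these cells in the Srebf1, Nr1h3 and Scd1 differences was not tested.

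Of the 13 genes listed for uptake and intracellular transport of cholesterol, 8 had a probe and 6 were tested. Castration raised 1 and lowered 0 in C57.YA, against 19.7% of all tested probes, and raised 0 and lowered 1 in C57BL/6J, against 8.81%. Among CX hearts 2 were called higher and 0 lower in C57.YA, against 11.6% and 11.8% of all tested probes. Vldlr, the receptor for very low density lipoprotein, was read by 5 probes. Its brightest probe read 14.35, 14.08, 14.22 and 14.10 in CX C57.YA hearts, against 13.89, 13.85, 13.87 and 13.96 in sham C57.YA hearts, and 14.23, 13.73, 13.79 and 13.90 in CX C57BL/6J hearts, against 13.73, 13.88, 13.89 and 13.63 in sham C57BL/6J hearts. It rose by 0.30 with castration in C57.YA, without overlap (adjusted p = 0.0449, with 4 of the 5 probes called), and differed by 0.13 in C57BL/6J (adjusted p = 0.498). The C57.YA call was lost without CX C57.YA replicate 1 (0.24, adjusted p = 0.143) or sham C57.YA replicate 2 (0.28, adjusted p = 0.101). None of the 6 tested genes was called for the interaction, against 2.88% of all tested probes. Averaged over both strains, castration raised 1 of the 6 and lowered 0, against 23.2% of all tested probes. The gene was Vldlr, whose brightest probe rose by 0.16 to 0.24 with 1 array left out, and this call was kept each time. All 5 Vldlr probes were called higher in CX C57.YA than in CX C57BL/6J hearts, by 0.28 to 0.57, and the call of the brightest was lost without CX C57.YA replicate 1 (0.22) or 3 (0.27) or CX C57BL/6J replicate 2 (0.22) or 3 (0.24) and with median scaling (0.19, adjusted p = 0.328).

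Lipa, the lysosomal acid lipase that frees cholesterol from lipoprotein taken up by the cell, differed between the strains among CX hearts. Its log2 signals were 9.54, 9.25, 9.60 and 9.48 in CX C57.YA hearts, against 9.03, 8.82, 8.92 and 9.03 in CX C57BL/6J hearts, with no overlap. The sham hearts read 9.14, 9.31, 9.46 and 9.55 in C57.YA and 9.16, 9.33, 9.44 and 9.12 in C57BL/6J. Lipa was 1.43-fold higher in CX C57.YA than in CX C57BL/6J hearts (log2 difference 0.52, SE 0.10, adjusted p = 0.00253), a call kept with each array left out. In the same comparison 1 of the 2 tested macrophage and leukocyte markers (Adgre1 and Lyz2) was called, against 23.4% of all tested probes. Their list means were 10.76 in CX C57.YA and 10.50 in CX C57BL/6J hearts, with summed signals of 3988 to 4923 against 3058 to 4495. Ptprc, a pan-leukocyte marker, was not detected often enough to be tested, and the part of these cells in the Lipa difference was not tested. In C57BL/6J hearts Lipa was 0.31 log2 units lower in CX than in sham hearts (adjusted p = 0.0724), a call lost without CX C57BL/6J replicate 2 (-0.27) or 3 (-0.30) or sham C57BL/6J replicate 2 (-0.29) or 3 (-0.25) and with median scaling (-0.26, adjusted p = 0.283). The interaction of 0.41 was not called (SE 0.14, adjusted p = 0.157). Between sham hearts Lipa was 0.11 higher in C57.YA and not called (adjusted p = 0.624). Averaged over surgery it was 0.31 higher in C57.YA (adjusted p = 0.00534), a call kept with each array left out, against 25.4% of all tested probes.

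Of 11 genes listed for the fatty acid branch, which SREBP-1 serves, 8 were tested. Castration raised 1 and lowered 1 of them in C57.YA, against 19.7% of all tested probes, and raised 0 and lowered 2 in C57BL/6J, against 8.81%. The median change over the 8 genes was -0.00231 in C57.YA and -0.12 in C57BL/6J hearts, against 0.00 over all tested probes in both. Scd1, stearoyl-CoA desaturase, fell in both strains. Acaca, acetyl-CoA carboxylase, fell by 0.26 in C57BL/6J (adjusted p = 0.083), a call lost in 6 of the 16 fits that left out 1 array. In C57.YA it differed by -0.20 (adjusted p = 0.119), and the interaction was 0.05 (adjusted p = 0.871). Averaged over both strains, 2 of the 8 genes were called higher and 2 lower, against 23.2% of all tested probes. Acaca fell by 0.23 there (adjusted p = 0.0117), a call kept with each array left out but not with median scaling (-0.14, adjusted p = 0.301). The log2 signals of Scd1 were 9.13, 9.06, 9.04 and 8.99 in CX C57.YA hearts, against 9.26, 9.36, 9.46 and 9.23 in sham C57.YA hearts, and 9.06, 8.85, 8.97 and 8.83 in CX C57BL/6J hearts, against 9.28, 9.29, 9.47 and 9.33 in sham C57BL/6J hearts. The groups did not overlap, with a log2 fall of 0.27 in C57.YA hearts (adjusted p = 0.0175) and 0.42 in C57BL/6J hearts (adjusted p = 0.00177), and the C57.YA call was not made with median scaling (difference -0.18, adjusted p = 0.328). Mid1ip1, an activator of acetyl-CoA carboxylase, went the other way in C57.YA: its means were 12.75 ± 0.15 in CX C57.YA and 11.76 ± 0.13 in sham C57.YA hearts, a rise of 0.99 (adjusted p = 3.69e-07), against 12.38 ± 0.04 in CX C57BL/6J and 12.48 ± 0.13 in sham C57BL/6J hearts. Among CX hearts 3 of the 8 were called higher in C57.YA, against 11.6% of all tested probes, namely Mid1ip1 (0.37), Acly, ATP citrate lyase (0.22), and Thrsp, a lipogenic regulator of liver (0.34), and among sham hearts Mid1ip1 alone was called, against 4.29% of all tested probes, 0.72 log2 units lower in C57.YA (adjusted p = 5.05e-05). The Acly and Thrsp calls were each lost in 6 or more of the 16 fits that left out 1 array, and none of the 3 was called with median scaling. In C57.YA hearts Mid1ip1 thus rose while Srebf1 and Scd1 fell.

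**Figure D4:**
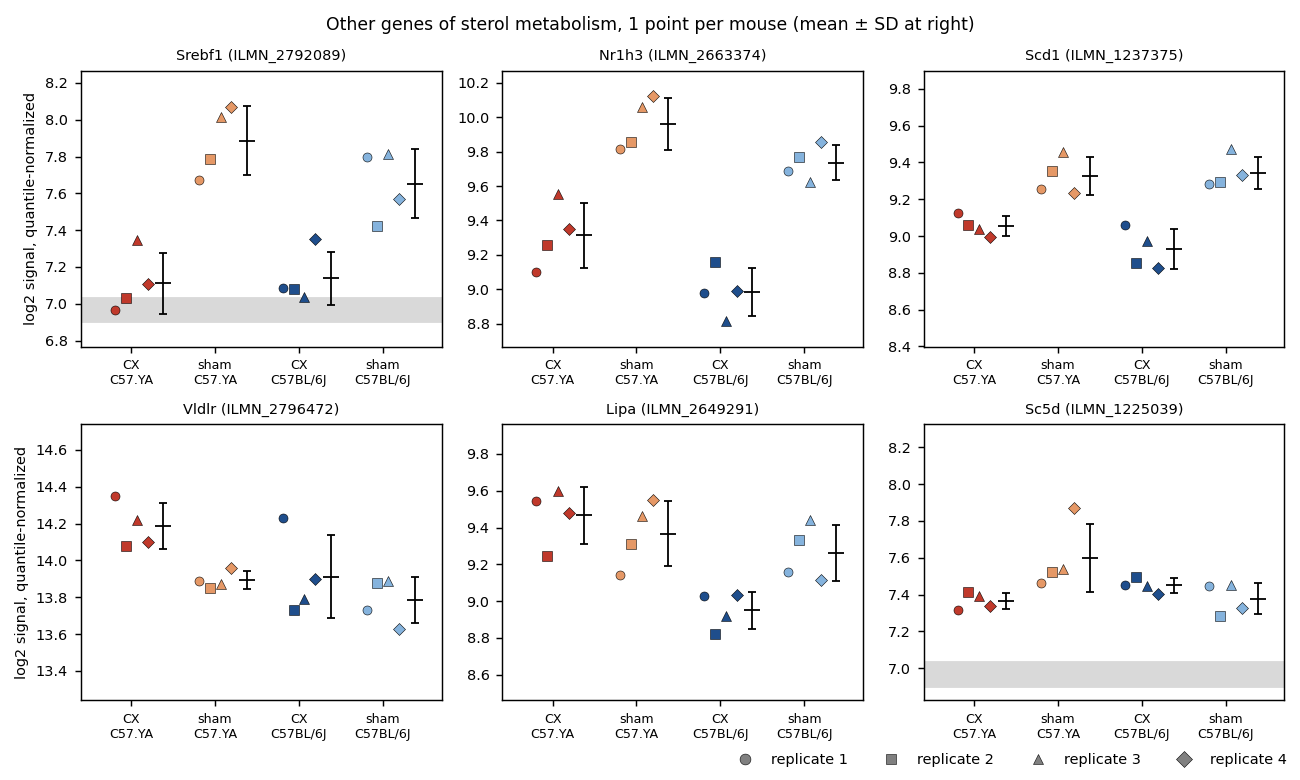
Log2 quantile-normalized signal (y axis) of 6 other genes of sterol and lipid metabolism in the 4 groups (x axis), with 1 symbol per mouse by replicate number and the mean and SD at the right of each group. The grey band marks the lowest detected signal, 6.90 to 7.03. Srebf1 and Nr1h3 lie lower in CX than in sham hearts of both strains, as does Scd1, whereas Lipa is lowest in CX C57BL/6J hearts (8.82 to 9.03).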

How the data were processed

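RNA of the left ventricle of 16 mice, 4 per group, was hybridized to 16 arrays on 2 Illumina BeadChips. The authors deposited unnormalized BeadStudio intensities, each with a detection p-value against the negative controls of its array. A table deposited beside them holds log2 values that the authors had quantile-normalized with the Affy package in R. Its probe names match those of the raw table on 1 line only, so its 25697 lines were paired by value, and it served as an alternative. No paired line lay farther than 1.58e-05 from its partner, so this table repeats the main values and is no independent check. Another 32 columns of bead statistics were not used.

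The log2 of each intensity was quantile-normalized, with no background subtracted. Probes were named through the platform annotation by Entrez number, which leaves 1719 unnamed and none with several genes. A probe was tested when its detection p was at most 0.04 on at least 2 of 4 arrays of a group, which kept 12764. One mean per group was fitted to all 16 arrays with limma 3.58.1 in R 4.3.3 (lmFit, eBayes), as in the factorial model of the methods, whose shrunken F-test with permutations was replaced by limma's moderated variance. The Benjamini-Hochberg threshold of 0.1 was applied over all tested probes. Correlations used 100000 permutations. The fit was tested on simulated data.

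The named genes are the 7 members, every gene of 5 lists called in a comparison of 2 groups or in the interaction, and the 10 probes most like the members' mean. In lists, the tested probe with the highest mean signal stood for its gene. The members and lists were chosen with earlier results of these data known. Replicates are separate mice. The number of arrays limits the precision of every value.

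Alternatives were median scaling, neqc background correction (offset 16), the authors' log2 table, other detection filters, an adaptive false discovery rate, array weights, an ordinary variance and the replicate number as a block. Fits were repeated on only the 8 arrays of a comparison and without each array in turn. Sham C57.YA replicates were also left out in pairs, since replicates 1 and 2 stand apart from 3 and 4. The fits with replicates 1 and 2 set against 3 and 4, or with either pair alone, were chosen after seeing the data.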

Additional observations from a re-analysis of the deposited data

Results flagged for a closer look

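In 9 of 92 sets of 4 arrays, 1 array lay far from the other 3 of its group, where chance alone marks about 1 set in 20. Among the members this was the ILMN_2895388 probe of Insig1 in sham C57BL/6J replicate 3, at 9.377 against 9.457 to 9.469 in the other 3 mice. Of the other genes, Srebf1 read 7.352 and Erlin2 9.619 in CX C57BL/6J replicate 4, and Thrsp, a lipogenic regulator of liver, read 8.615 in the same mouse. Acly, ATP citrate lyase, read 11.55 in sham C57.YA replicate 3 and 11.18 in sham C57BL/6J replicate 4. Mbtps1 read 8.577 in CX C57.YA replicate 1, Apoe read 10.52 in sham C57.YA replicate 2, and Acaca, acetyl-CoA carboxylase, read 10.16 in sham C57BL/6J replicate 3.

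The castration change of Mid1ip1 differed between the strains, with an interaction of 1.091 on the log2 scale (limma adjusted p = 5.06e-05), from a rise of 0.99 in C57.YA and a difference of -0.10 in C57BL/6J hearts.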

How the results depend on the processing

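The count of member probes called in each comparison was the same under most alternatives, and no called value changed sign in any. The 2 calls of CX C57.YA against CX C57BL/6J hearts became 1 with neqc, with the 8 arrays alone and within replicates 1 and 2, and 0 with median scaling, without a detection filter, with an ordinary variance and within replicates 3 and 4. Leaving out 1 array gave 0 to 2 calls. The 1 call averaged over surgery became 0 with median scaling, within replicates 1 and 2 and without sham C57.YA replicates 3 and 4, and leaving out 1 array gave 1 to 2. Without sham C57.YA replicates 1 and 2, the sham comparison and castration averaged over strains each gave 1 call in place of 0. The pairs of members called were 0 with neqc, median scaling and group means subtracted. The authors' log2 table also gave 0, but it holds the same values as the main fit and could not differ. The cause of these changes was not tested.

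Over all probes, median scaling gave 1243 higher and 448 lower for castration in C57.YA, against 1219 and 1291 with quantile normalization, and 366 and 197 in C57BL/6J, against 523 and 601. It gave 736 higher and 1353 lower in C57.YA among CX hearts, against 1480 and 1512, and 86 and 279 among sham hearts, against 253 and 295. It moved the median of all probes by at most 0.06. Counts over all probes also moved with the sham C57.YA mice: the sham comparison gave 548 calls, 2042 without replicates 1 and 2 and 179 without replicates 3 and 4, and castration in C57.YA gave 2510, 1510 and 3218.

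A replicate block left the member calls at 2 among CX hearts, 1 averaged over surgery and 0 elsewhere. It changed no count of all probes by over 1.5 times (694 against 548 in sham hearts). With replicates 1 and 2 against 3 and 4 as a block, the count in sham hearts was 776. Deviations of same-numbered arrays correlated between -0.0856 and 0.204, over 0.1 in 8 of 24 pairs, and 7 of 16 arrays correlated best with their own number. A BeadChip block was not run, because the sources used here do not say which array was on which chip.

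The members limit what can be said: 3 of 10 probes were not detected on any array, Idi1 was detected on 7 of 16, and probes near background understate folds.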
